A study of Homo sapiens with 19 samples.

Results

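The annexins and the S100 proteins are the families of calcium-binding proteins that bring the calcium signal to membranes and to the cytoskeleton. They were taken by gene symbol, as the protein-coding genes named ANXA or S100A with a number, or S100B, S100G, S100P or S100Z, a rule that uses no measured value. Of the 44717 gene identifiers listed for any library, 29 were members: 11 annexin genes, 14 S100 genes on chromosome 1 and 4 S100 genes elsewhere. ANXA8 and S100A12 fit the naming but were not analysed here. The study silenced BRG1 or MITF in 501Mel, a melanoma line, and in Hermes 3A, a line of immortalised melanocytes, to compare what the chromatin remodeller BRG1 and the transcription factor MITF do in transformed and untransformed cells of this lineage. RNA-seq gave 19 libraries in 7 groups: 501Mel with the scramble control shSCR1 or with shBRG1 (n = 3 each), 501Mel with the scramble control shSCR2 or with shMITF (n = 2 each), and Hermes 3A with shSCR, shBRG1 or shMITF (n = 3 each). Every library, controls included, came from cells infected with a lentiviral shRNA vector. Each line is 1 cell line grown in its own medium, Hermes 3A with TPA, cholera toxin and growth factors that 501Mel did not receive, so that the line and its medium cannot be told apart. The labels number the replicates and name no culture for each, so the p-values measure the spread between these libraries, which may be technical. Total counts were 29158502 to 78857900 per library, and 24 of the 29 members were listed for every library.

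As background, annexins bind negatively charged phospholipids when calcium rises and take part in membrane repair, vesicle traffic and the organisation of the membrane skeleton. Most S100 proteins are small dimers with EF-hand calcium sites that change shape on binding calcium and then hold target proteins, and S100A10, which lacks working calcium sites, holds ANXA2 in a stable complex at the membrane. In the melanocyte lineage S100B is a marker used in pathology, and several S100 proteins act outside the cell through receptors such as RAGE (AGER) and TLR4.

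The targeted transcripts were reduced in the libraries that carry their shRNA. SMARCA4, the gene of BRG1, changed on the log2 scale by -2.36 (adjusted p = 3.7e-21) with shBRG1 in 501Mel and -2.38 (adjusted p = 1.6e-24) in Hermes 3A by edgeR (quasi-likelihood F test, Benjamini-Hochberg). MITF had -1.06 (adjusted p = 0.0014) with shMITF in 501Mel and -0.85 (adjusted p = 0.019) in Hermes 3A, the latter not past the log2 threshold of 1. With shBRG1 it had -1.55 (adjusted p = 8.0e-16) in 501Mel and -0.43 in Hermes 3A, the latter below an adjusted p of 0.05 but not past that threshold. Called genes are those with an adjusted p below 0.05 and a log2 change beyond 1 in either direction. The melanocytic markers MLANA, PMEL, TYR, DCT, TYRP1 and SOX10 summed to 26378 to 28243 TPM (a level scaled to gene length and depth) in 501Mel with shSCR1 and to 56003 to 57044 TPM in Hermes 3A with shSCR. PMEL and TYRP1 made up most of these sums. DCT alone went the other way, at 738 ± 94.1 TPM in 501Mel and 9.83 ± 0.644 TPM in Hermes 3A (SD, n = 3). In bulk RNA, fewer cells of a kind and less RNA per cell cannot be told apart. The spread between replicates, as the biological coefficient of variation, was 4.53% to 5.68% in the shSCR1, shBRG1 and shSCR groups, and 15.5%, 15.9% and 28.3% in 501Mel shSCR2, 501Mel shMITF and Hermes 3A shMITF.

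A few members made up most of the transcripts of both families. In 501Mel with shSCR1, ANXA5, a phosphatidylserine-binding annexin, stood first at 982 ± 45.9 TPM (SD, n = 3), followed by ANXA2 at 385 ± 15.6, S100A11, a partner of ANXA1, at 187 ± 2.57 and ANXA6, an annexin with a doubled core, at 148 ± 8.25 TPM. Every shSCR1 library kept that order. S100A13 and S100A16 came next at 117 ± 10.1 and 107 ± 10.3 TPM, and their libraries overlapped, as did those of S100A10 and ANXA11 at 37.8 ± 4.46 and 37.1 ± 1.35 TPM. With shSCR2 (n = 2) the order differed, with S100A11 at 343 TPM above ANXA2 at 252, and ANXA7 at 166 above ANXA6 at 119 TPM. The order can also depend on the length used. Exons of ANXA6 cover 5427 bases and its longest transcript 2593, beside 680 and 594 for S100A11. In Hermes 3A with shSCR the first places belonged to S100A11 at 2205 ± 38.5 TPM and ANXA5 at 2194 ± 89.6 TPM, whose libraries overlapped, followed by S100A6, a small S100 protein of dividing and mesenchymal cells, at 1364 ± 4.39 TPM. ANXA6 and ANXA2 followed at 448 ± 9.75 and 445 ± 8.31 TPM, with overlapping libraries. The libraries passed through a nuclease step that lowers the most abundant cDNAs, and its part in these levels was not tested.

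At the other end, S100A7, S100A8, S100A9, S100G and S100Z held at most 3 counts in any library that lists them. S100A8 and S100Z were listed only for the 501Mel shSCR2 and shMITF libraries, with 0 counts, and S100A7, S100A9 and S100G were not listed for Hermes 3A with shMITF. The calgranulins S100A8 and S100A9 are abundant in neutrophils and inflamed epidermis, as is S100A7 in the latter. ANXA10 had at most 7 counts except for Hermes 3A with shMITF, where the libraries held 38, 4 and 6.

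**Figure D1:**
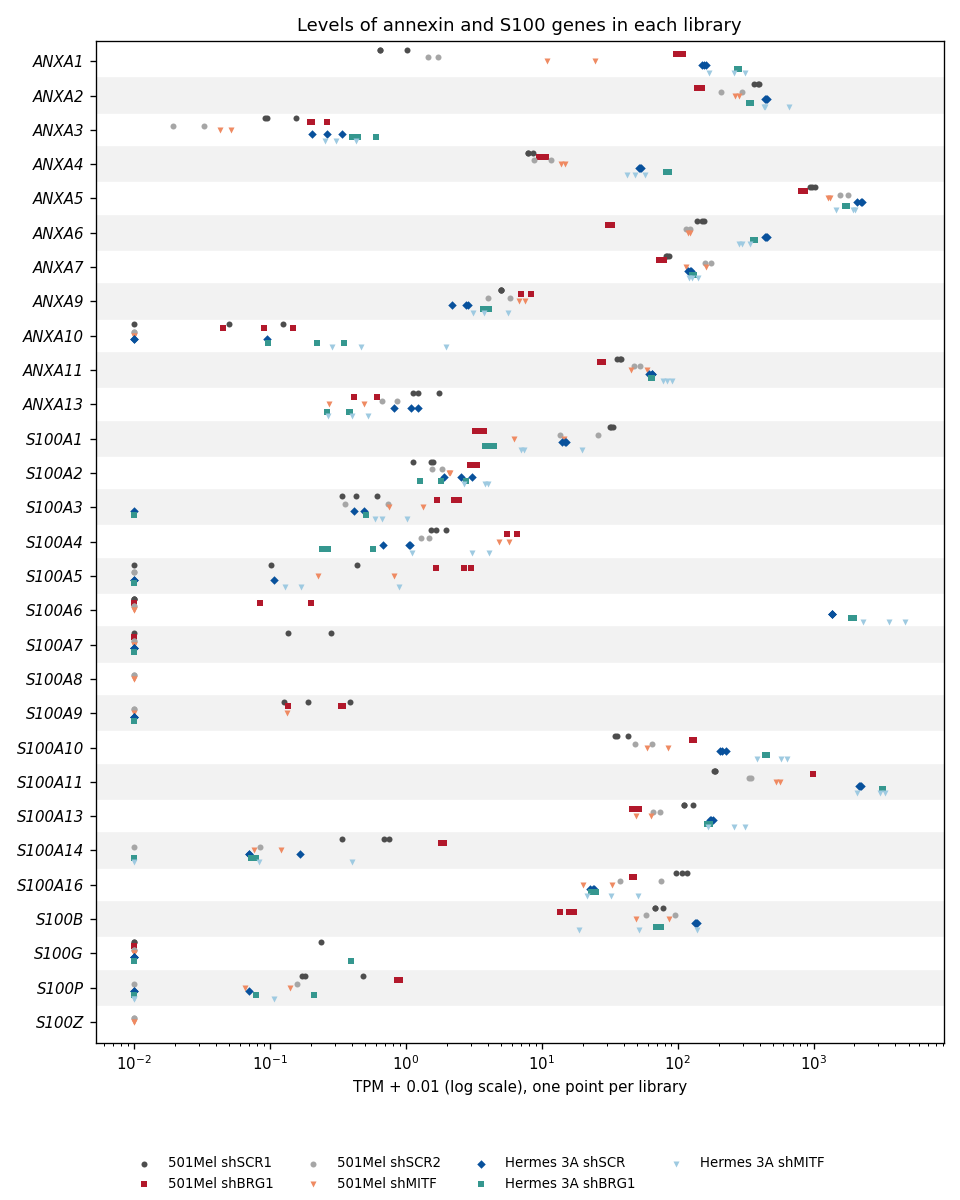
Levels of the 29 members as TPM + 0.01 on a log axis, 1 row a gene, 1 point a library, colours and shapes for the 7 groups. S100A6 lies below 1 in every 501Mel library and above 1000 in every Hermes 3A library, and no point is drawn where a gene is not listed for a group.

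The 2 lines differed most in S100A6 and ANXA1. S100A6 (ENSG00000197956, chromosome 1 from 153534599 to 153536244 on the minus strand, in the GENCODE 29 annotation of GRCh38) had 0 counts in all 5 scramble libraries of 501Mel and 4 counts over all 10 libraries of that line, which together hold 467983945 counts. In Hermes 3A with shSCR it had 372, 373 and 373 CPM (counts scaled to a common library size, here with TMM over both groups). Against the floor of 3 counts in the smallest of the 501Mel scramble libraries, 0.0948 CPM of its total, the unscaled Hermes 3A level of 340.3 ± 0.79 CPM (SD, n = 3) makes S100A6 at least 3590-fold lower in 501Mel. ANXA1 (ENSG00000135046, chromosome 9 from 73151757 to 73170393 on the plus strand), a glucocorticoid-induced annexin that signals through formyl peptide receptors once secreted, had 1.25, 0.770 and 0.775 CPM in 501Mel with shSCR1 and 201, 195 and 208 CPM in Hermes 3A with shSCR. The libraries of both lines did not overlap, and the log2 difference, 501Mel minus Hermes 3A, was -7.74 (SE 0.092, adjusted p = 7.2e-28) by edgeR (quasi-likelihood F test, Benjamini-Hochberg).

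The start regions of the genes that the results turn on most are shown here. They are the 2 genes that differed most between the lines, and ANXA6 and S100A11, which moved in opposite directions with shBRG1 in 501Mel. The sequences come from RefSeq on GRCh38.p14, 250 bases before to 50 after the annotated start, 5′ to 3′ on the strand of the gene. 3 motifs were searched on both strands with overlaps allowed: the E-box CACGTG and the variant CATGTG, both bound by MITF-type factors, and TGANTCA, the site of AP-1, where N is any base. Capitals mark a match.
ANXA1 promoter, chr9:73151615-73151914, plus strand: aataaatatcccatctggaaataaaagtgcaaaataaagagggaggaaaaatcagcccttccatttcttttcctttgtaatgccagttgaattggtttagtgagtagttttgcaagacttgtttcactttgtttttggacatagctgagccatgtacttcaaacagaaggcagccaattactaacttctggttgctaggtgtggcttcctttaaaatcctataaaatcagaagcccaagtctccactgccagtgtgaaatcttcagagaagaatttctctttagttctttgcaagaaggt
S100A6 promoter, chr1:153535942-153536241, minus strand: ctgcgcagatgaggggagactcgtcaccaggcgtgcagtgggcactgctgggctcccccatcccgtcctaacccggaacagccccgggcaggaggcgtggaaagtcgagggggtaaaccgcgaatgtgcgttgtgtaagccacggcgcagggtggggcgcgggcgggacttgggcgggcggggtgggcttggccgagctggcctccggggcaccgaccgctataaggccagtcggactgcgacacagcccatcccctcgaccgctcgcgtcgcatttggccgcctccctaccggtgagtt
ANXA6 promoter, chr5:151157730-151158029, minus strand: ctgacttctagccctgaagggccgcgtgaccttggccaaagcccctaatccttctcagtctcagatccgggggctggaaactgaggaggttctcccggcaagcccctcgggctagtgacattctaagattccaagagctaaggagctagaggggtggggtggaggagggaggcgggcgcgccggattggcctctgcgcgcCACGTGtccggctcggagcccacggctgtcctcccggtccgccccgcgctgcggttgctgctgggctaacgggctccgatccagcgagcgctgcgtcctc
S100A11 promoter, chr1:152036955-152037254, minus strand: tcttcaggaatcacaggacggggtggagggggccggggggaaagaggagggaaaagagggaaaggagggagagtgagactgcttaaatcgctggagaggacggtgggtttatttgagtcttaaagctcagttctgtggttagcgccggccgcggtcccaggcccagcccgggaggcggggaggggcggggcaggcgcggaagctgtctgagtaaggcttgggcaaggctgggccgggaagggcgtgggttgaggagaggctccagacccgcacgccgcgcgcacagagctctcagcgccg
The ANXA6 start region holds CACGTG, beginning 50 bases before the start, and the other 3 windows hold none of the motifs. Of 35116 start regions in the table, 7.26% hold CACGTG, 11.1% CATGTG and 7.71% TGANTCA. Of the 27 member genes with a start region there, 2 hold CACGTG (ANXA4 and ANXA6), 5 hold CATGTG (ANXA6, ANXA9, S100A13, S100A16 and S100P) and 4 hold TGANTCA (ANXA2, S100A2, S100A3 and S100A5), counting every annotated start of a gene. A gene counts if any of its starts holds a match, so these counts are not on the per-region scale of the percents. A match describes the letters and no more.

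Between the scramble groups of the lines, 2 of the 19 members tested were higher in 501Mel and 9 lower, beside 41.4% of all genes called in either direction, 23.1% higher and 18.2% lower. The median log2 difference was -0.90 over the members and 0.038 over all genes. Among annexins, ANXA4, ANXA5 and ANXA6 were lower in 501Mel by -2.78, -1.24 and -1.67 on the log2 scale, and ANXA3, at few counts, by -1.36. ANXA3 held 6, 11 and 4 counts with shSCR1 and 22, 10 and 17 in Hermes 3A. It entered the test through Hermes 3A, where it was higher, as did S100A6, with 0 counts in the shSCR1 libraries. Among S100 genes, S100A10 was lower at -2.58, S100A11 at -3.64 and S100B at -1.01, and S100A16 and S100A1 were higher at 2.11 and 1.08. The highest adjusted p among these was 0.0064, for ANXA3. S100A16 had 54.0, 48.4 and 43.9 CPM in 501Mel and 11.6, 10.9 and 11.4 CPM in Hermes 3A. ANXA2, the annexin of the S100A10 complex, differed by -0.29, and by -0.89 to -0.026 under the other settings of scaling, filter, method and control. In 501Mel with shSCR1 the pair stood at 385 ± 15.6 TPM of ANXA2 beside 37.8 ± 4.46 TPM of S100A10. With shSCR2 it stood at 252 ± 63.0 beside 56.3 ± 11.5 TPM (n = 2), and in Hermes 3A at 445 ± 8.31 beside 215 ± 11.5 TPM. Scaling by library size instead of TMM moved the median of all genes up by 0.26, made 4 members higher, and took the share of calls that are higher in 501Mel from 55.9% to 66.0%. With shSCR2 as the 501Mel group, S100A13 was called lower, at -1.41 (adjusted p = 5.6e-08) in place of -0.67, and ANXA3 was at -4.19, while S100A1 was at 0.35 (adjusted p = 0.22), ANXA5 at -0.46, S100B at -0.90 and ANXA7 at 0.37 in place of -0.62. S100B lay near the threshold and was at -0.97 without shSCR1 replicate 2 or 3 and -0.999 without Hermes 3A shSCR replicate 1, while S100A2, at -0.90, passed it at -1.01 without shSCR1 replicate 1 and at -1.07 without Hermes 3A shSCR replicate 3.

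Silencing of BRG1 in 501Mel gave more called members than the other 3 knockdown comparisons. Of 22 tested, 9 rose and 7 fell, where 39.1% of all genes were called, 21.7% higher and 17.4% lower, and all 22 were past the adjusted p alone, as were 80.3% of all genes. The median log2 fold change was 0.33 over the members and 0.053 over all genes. S100A3, S100A5, S100A14 and S100P had at most 13 counts in any shSCR1 library. They entered the test through the group where they were higher, which favours a rise. ANXA3, with at most 11 counts there, entered through the shBRG1 group too. The summed level of the annexins was 1576 to 1717 TPM with shSCR1 and 1189 to 1285 TPM with shBRG1, and that of the S100 genes 533 to 584 and 1251 to 1257 TPM. S100A11 alone held 184 to 189 and 983 to 998 TPM of the S100 sums, so their rise is not one of the family as a whole. Scaling by library size instead of TMM moved the median of all genes up by 0.35, and the share of higher calls went from 55.5% to 72.1%.

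Of the annexins, 1 rose and 3 fell. ANXA1 had 1.53, 0.956 and 0.959 CPM with shSCR1 and 148, 137 and 147 CPM with shBRG1. The groups stood far apart, with a log2 fold change of 6.95 (SE 0.094, adjusted p = 9.3e-25) by edgeR (quasi-likelihood F test, Benjamini-Hochberg). In TPM the shBRG1 libraries reached 110.1, 96.4 and 105, below the 157, 151 and 163 of Hermes 3A with shSCR. ANXA2, the membrane partner of S100A10 and a receptor for plasminogen activation, had 1067, 1155 and 1134 CPM with shSCR1 and 391, 382 and 376 CPM with shBRG1. All shBRG1 libraries lay below all controls, with a log2 fold change of -1.55 (SE 0.049, adjusted p = 1.1e-18). ANXA6, which organises cholesterol-rich membranes, had 248, 278 and 267 CPM with shSCR1 and 52.4, 51.9 and 54.5 CPM with shBRG1, again without overlap, at -2.32 (SE 0.052, adjusted p = 2.2e-21). Up to 1.78% as many reads as on ANXA2 were counted on its processed pseudogene ANXA2P2 in any library, so the ANXA2 counts could carry an error of that order.

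The other annexins moved less. ANXA3, ANXA4 and ANXA9 were past the adjusted p only, at 0.85, 0.20 and 0.45, as were ANXA11 at -0.54, ANXA5 at -0.34 and ANXA7 at -0.25, the last pair with a direction that turned under library-size scaling (0.0064 and 0.10). ANXA3, which entered the test through the shBRG1 group, where it was higher, was called higher under that scaling, at 1.19, and without shSCR1 replicate 2, at 1.18. ANXA13, an intestinal annexin, fell at few counts, from 64, 98 and 41 to 24, 25 and 32 counts at -1.67 (adjusted p = 4.7e-07).

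Among the S100 genes, S100A11 and S100A10 rose and S100A1, S100B, S100A13 and S100A16 fell, all at over 100 counts per library in the higher group. S100A11 (ENSG00000163191, chromosome 1 from 152032506 to 152047907 on the minus strand) had 42.0, 42.4 and 41.1 CPM with shSCR1 and 197, 211 and 208 CPM with shBRG1, a log2 fold change of 2.29 (SE 0.049, adjusted p = 1.2e-21). S100A10 (ENSG00000197747, chromosome 1 from 151982915 to 151994390 on the minus strand) had 17.5, 21.9 and 18.3 CPM with shSCR1 and 60.1, 60.9 and 62.1 CPM with shBRG1, at 1.66 (SE 0.066, adjusted p = 1.1e-16). For both genes every shBRG1 library lay above every control. So S100A10 rose while its partner ANXA2 fell, and S100A11 and its partner ANXA1 both rose. S100A11 pseudogenes held at most 0.094% as many counts as S100A11.

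S100A1, a calcium sensor of muscle that is also expressed in melanocytic tumours, had 31.9, 33.4 and 32.3 CPM with shSCR1 and 3.09, 3.55 and 2.98 CPM with shBRG1. It showed the deepest fall of a member, at -3.34 (SE 0.08, adjusted p = 7.1e-21). S100B (ENSG00000160307, chromosome 21 from 46598962 to 46605208 on the minus strand), the glial and melanocytic S100 protein, had 37.3, 32.5 and 32.1 CPM with shSCR1 and 7.37, 6.13 and 7.07 CPM with shBRG1, at -2.31 (SE 0.08, adjusted p = 6.5e-18). Neither gene had overlapping groups. S100A13, which takes part in the release of proteins without a signal peptide, had 93.8, 81.0 and 81.2 CPM with shSCR1 and 33.9, 34.9 and 31.1 CPM with shBRG1, at -1.36 (SE 0.061, adjusted p = 9.5e-16). S100A16, a widely expressed member, had 66.0, 60.1 and 54.3 CPM with shSCR1 and 23.6, 25.2 and 23.8 CPM with shBRG1, at -1.31 (SE 0.064, adjusted p = 4.2e-15). Every library of the knockdown lay below the controls for these genes too. S100A16 went under the threshold on size under library-size scaling, at -0.97, and with both scramble groups of the line pooled, at -0.97 (adjusted p = 0.034). S100A1 and S100A13 lie on opposite strands and share 235 exon bases, 7.76% of those of S100A1 and 10.6% of those of S100A13, and no source used here says whether counting used strand, so reads from the shared bases cannot be assigned.

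The S100 genes with few counts rose as well. S100A2, a p53-linked gene of epithelia, was at 1.03 (adjusted p = 5.5e-05), S100A3, of hair cuticle, at 2.06 (adjusted p = 1.4e-05), S100A4, tied to motility and metastasis, at 1.73 (adjusted p = 3.7e-08), S100A5 at 3.42 (adjusted p = 2.0e-06), S100A14 at 1.49 (adjusted p = 8.8e-05) and S100P, a ligand of RAGE, at 1.48 (adjusted p = 0.0029). The shBRG1 libraries held at most 109 counts of any of them, against at most 34 in the shSCR1 libraries. Without shSCR1 replicate 2, S100A2 was at 0.86, under the threshold. S100A3 lies inside the S100A4 locus on the same strand. S100A6 was not tested in 501Mel: the shBRG1 libraries held 0, 3 and 1 counts.

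**Figure D2:**
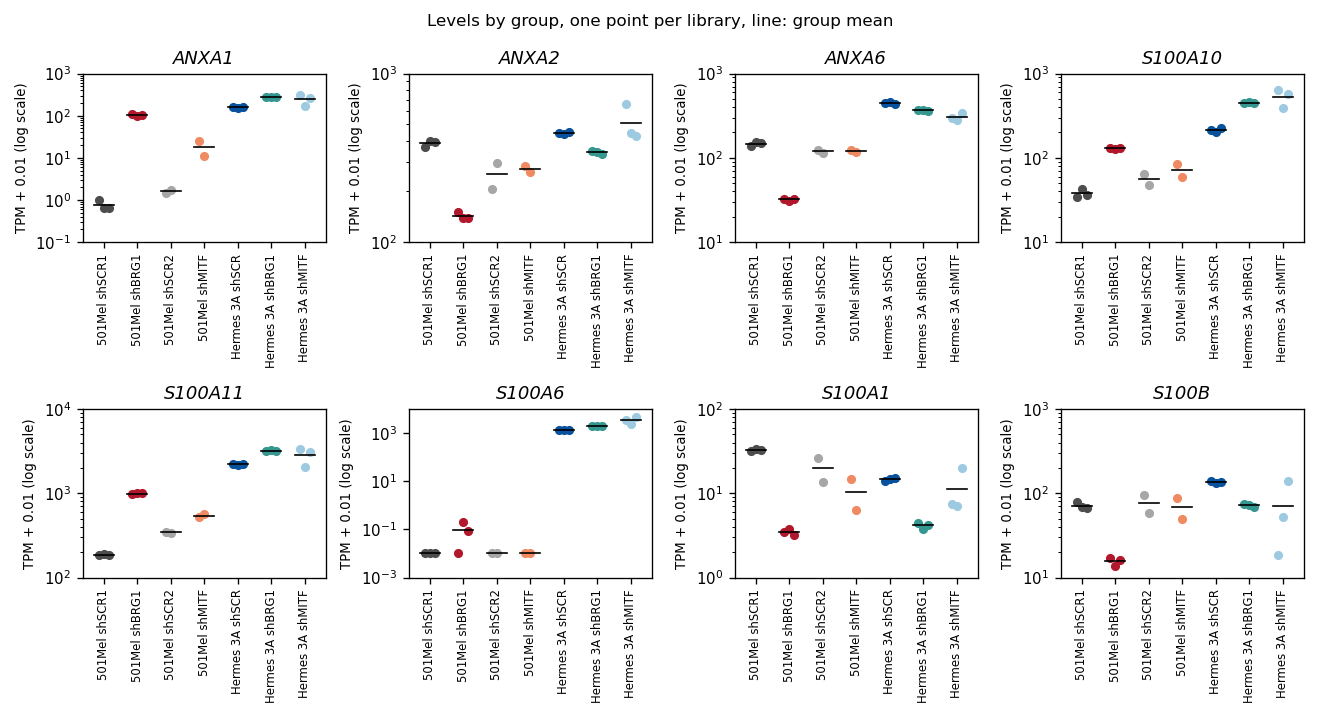
Levels of 8 members in each group as TPM + 0.01 on log axes that differ between panels, 1 point a library, the line marking the group mean. ANXA1, S100A10 and S100A11 are higher and ANXA2, ANXA6, S100A1 and S100B lower with shBRG1 than with shSCR1 in 501Mel, without overlap between the groups.

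Along chromosome 1 the 14 S100 genes span 1.65 megabases, from 151982915 to 153632039 in GENCODE 29, and their changes with shBRG1 in 501Mel are given in that order. Reading along the chromosome, the tested genes S100A10, S100A11, S100A5, S100A4, S100A3 and S100A2 all rose. S100A5 and S100A3 entered the test through the group where they were higher, which favours a rise, so their direction adds nothing here. Beyond them S100A16 fell, S100A14, which entered in the same way, rose, and S100A13 and S100A1 fell. S100A10 and S100A11 lie apart from the rest, with 1309946 bases between S100A11 and S100A9. Between S100A2, which rose, and S100A16, which fell, the gap is 38995 bases. This order was noticed after the values were seen, and neighbouring genes do not count as independent.

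**Figure D3:**
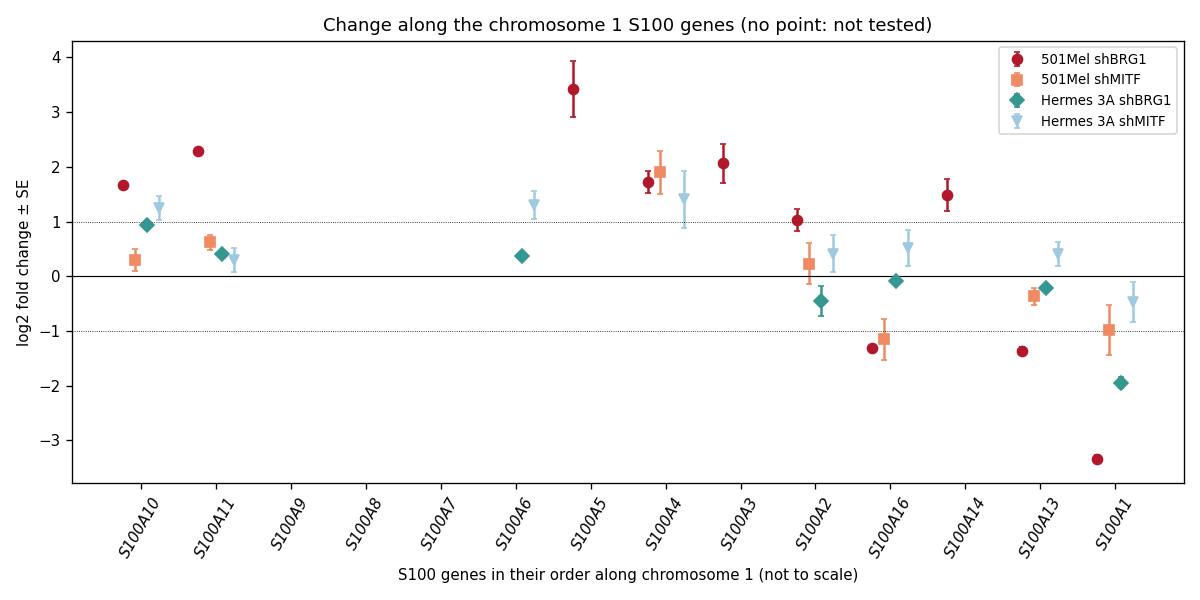
Log2 fold change ± SE of the chromosome 1 S100 genes in their order along the chromosome, for the 4 knockdown comparisons, dotted lines at the threshold of 1 in either direction. With shBRG1 in 501Mel the tested genes from S100A10 to S100A2 lie above 0, and of the last 4 genes only S100A14 does.

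In Hermes 3A the same silencing called fewer members. Of 18 tested, 0 rose and 3 fell, beside 9.26% of all genes called in either direction, 5.78% higher and 3.47% lower, and 14 were past the adjusted p alone, beside 56.9% of all genes. Library-size scaling, which moved the median of all genes up by 0.10, called S100A10 higher at 1.05, took S100B under the threshold at -0.93, and moved the share of higher calls from 62.5% to 72.5%. S100A1 had 11.4, 11.9 and 12.1 CPM with shSCR and 3.31, 2.83 and 3.06 CPM with shBRG1. It fell by 1.95 on the log2 scale (SE 0.099, adjusted p = 6.7e-16). S100B had 53.8, 51.8 and 52.6 CPM with shSCR and 26.6, 26.2 and 24.2 CPM with shBRG1. For both genes every shBRG1 library lay below every control. The change of S100B was -1.04 (SE 0.058, adjusted p = 4.3e-15), close to the threshold, and its adjusted p was 0.17 when all groups of the line, with their wider spread, shared one fit. ANXA13 fell at few counts, from 54, 31 and 60 to 18, 22 and 11 counts, at -1.75 (adjusted p = 1.6e-05).

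The remaining members of Hermes 3A passed the test on p alone or not at all. ANXA1 had 191, 185 and 198 CPM with shSCR and 309, 315 and 309 CPM with shBRG1, at 0.70 (adjusted p = 3.9e-15), and S100A10 had 86.9, 84.5 and 93.5 and 171, 173 and 165 CPM, at 0.94 (adjusted p = 6.7e-17). Both lay above their controls in every library, under the log2 threshold of 1. S100A11 was at 0.41 (adjusted p = 3.4e-10) and S100A6, among the highest members of this line, at 0.37 (adjusted p = 4.8e-09), with 353, 353 and 354 CPM with shSCR and 451, 472 and 443 CPM with shBRG1. ANXA2 was at -0.51 (adjusted p = 1.9e-11), ANXA5 at -0.46 (adjusted p = 2.7e-10), ANXA6 at -0.42 (adjusted p = 6.2e-10), ANXA4 at 0.55 (adjusted p = 1.3e-12), S100A13 at -0.21 (adjusted p = 1.3e-04), ANXA11 at -0.12 (adjusted p = 0.016) and ANXA9 at 0.47 (adjusted p = 0.039). Over the alternative fits with every library kept, the adjusted p reached 0.27 for S100A6, 0.16 for S100A11 and 0.51 for S100A13. For ANXA2, ANXA5, ANXA9 and ANXA11 it reached 0.099, 0.063, 0.19 and 0.81. For ANXA1, ANXA4, ANXA6 and S100A10 it stayed lower, with highest values of 0.043, 0.012, 0.023 and 0.0067. S100A16 was not past the adjusted p, at -0.086 (adjusted p = 0.38), nor were ANXA3, ANXA7 and S100A2. The summed S100 level was 4088 to 4180 TPM with shSCR and 5796 to 5926 TPM with shBRG1, and that of the annexins 3379 to 3566 and 2969 to 3038 TPM. S100A11, S100A6 and S100A10 averaged 2205, 1364 and 215 TPM of the S100 sum with shSCR and 3204, 1920 and 450 TPM with shBRG1. So its rise is not one of the family as a whole here either.

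The difference between the lines was itself tested, as the shBRG1 effect in 501Mel minus that in Hermes 3A in one fit of these libraries. Of 23 members tested, 11 differed, beside 26.9% of all genes, which were 2610 upward and 3224 downward of 21697. Upward, ANXA1 had the largest difference of these, 6.22 (SE 0.11, adjusted p = 6.9e-34). It was followed by S100A4 at 3.13 (adjusted p = 2.1e-06) and S100A3 at 3.11 (adjusted p = 0.011), both at few counts. Then came S100A11 at 1.85 (adjusted p = 4.2e-25) and S100A2 at 1.44 (adjusted p = 6.3e-04). S100A3 entered this fit through no group but the shBRG1 libraries of 501Mel, which favours an upward difference. The change was more negative in 501Mel for ANXA6 at -1.94 (adjusted p = 2.5e-25), S100A1 at -1.42 (adjusted p = 3.4e-12), S100B at -1.30 (adjusted p = 3.3e-14), S100A16 at -1.26 (adjusted p = 1.6e-13), S100A13 at -1.18 (adjusted p = 2.0e-16) and ANXA2 at -1.06 (adjusted p = 5.1e-17). S100A10 differed by 0.69 (adjusted p = 1.2e-09), under the threshold on size. Library-size scaling moved the median of all genes up by 0.27 and the share of upward calls from 44.7% to 61.8%, and it put ANXA2, S100A13 and S100A16 under the threshold of 1 with their direction kept. Without 501Mel shBRG1 replicate 1 the difference of ANXA2 was -0.98, and without Hermes 3A shSCR replicate 3 that of S100A3 was 2.60 (adjusted p = 0.089). The line and its medium cannot be told apart in this difference, and the melanocytic marker sum was lower with shBRG1 in both, at 2737 to 3154 TPM in 501Mel and 29831 to 30412 TPM in Hermes 3A. MITF itself was called more negative in 501Mel in this difference, at -1.15, and its part was not tested.

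**Figure D4:**
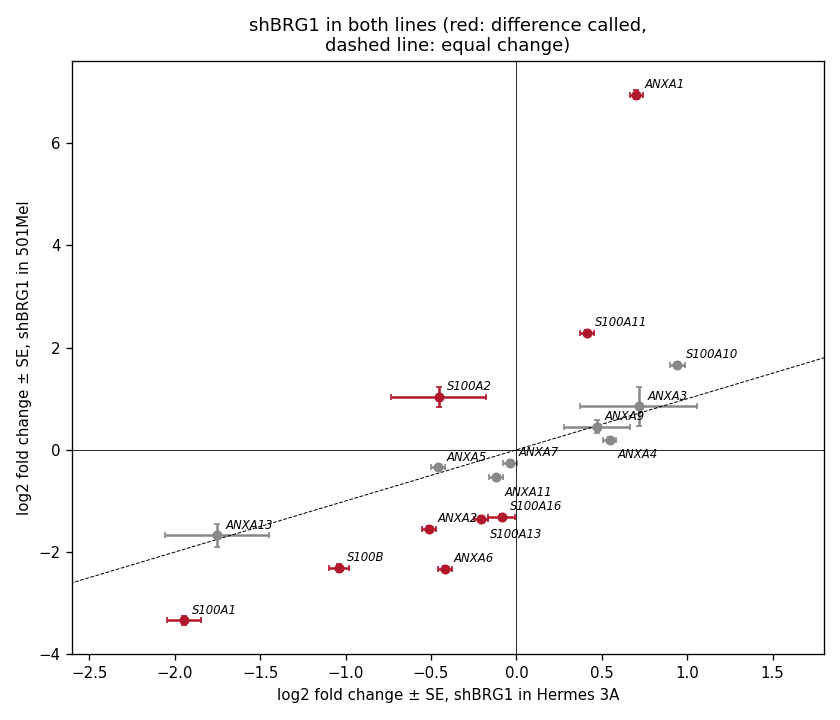
Log2 fold change ± SE with shBRG1 in 501Mel (vertical axis) and in Hermes 3A (horizontal axis, drawn on a wider scale) for the members tested in both, in red where the difference was called and grey elsewhere. ANXA1 and S100A11 lie well above the dashed line of equal change, ANXA6, S100A1 and S100B below it, and S100A10 and ANXA13 are not called different.

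Silencing of MITF in 501Mel called 2 members as higher and 0 as lower of 17 tested, beside 8.99% of all genes, 5.59% higher and 3.40% lower. On the adjusted p alone 3 passed, beside 20.5% of all genes. The median log2 fold change was 0.0029 over the members and 0.01 over all genes. ANXA1 had 1.84 and 2.21 CPM with shSCR2 and 29.2 and 14.1 CPM with shMITF. Both shMITF libraries lay above both controls, with a log2 fold change of 3.40 (SE 0.37, adjusted p = 0.0016). S100A4 rose from 13 and 28 to 59 and 83 counts, at 1.90 (adjusted p = 0.01), and without shSCR2 replicate 2 its adjusted p was 0.055. S100A11, past the adjusted p only, had 66.3 and 64.5 CPM with shSCR2 and 92.8 and 108 CPM with shMITF, at 0.62 (adjusted p = 0.011). Its adjusted p reached 0.11 over the alternative fits with every library kept, and its change was 0.50 to 0.71 with 1 library left out.

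Of the members that fell with shBRG1 in this line, none was called with shMITF as fitted here by edgeR, but the calls of S100A1 and S100A16 turned on the fit. ANXA2 had 512 and 736 CPM with shSCR2 and 652 and 649.6 CPM with shMITF, and ANXA6 186 and 176 and 173 and 181 CPM. S100A1 had 22.0 and 11.6 CPM with shSCR2 and 11.5 and 5.35 CPM with shMITF, at -0.99 (adjusted p = 0.19), S100A16 had 35.8 and 17.8 and 14.5 and 9.57 CPM, at -1.15 (adjusted p = 0.08), and S100B 39.0 and 24.0 and 32.7 and 20.1 CPM. With the replicate number as a block S100A1 was at -1.02 (adjusted p = 0.0077) and S100A16 at -1.10 (adjusted p = 0.0036), both called lower, and DESeq2 called both too, at -1.001 (adjusted p = 0.041) and -1.17 (adjusted p = 0.0031). One fit over all groups of the line called S100A16 lower at -1.16 (adjusted p = 0.022) together with ANXA13, at few counts, at -1.08 (adjusted p = 0.036), and the fit without the filter on low counts called S100A16 at -1.14 (adjusted p = 4.9e-07). S100A16 was called lower without shSCR2 replicate 2, at -1.58 (adjusted p = 1.0e-03), and S100A1 without shMITF replicate 1, at -1.65 (adjusted p = 0.018). S100A1 had nearly the same level in one control and one knockdown library, and S100B overlapped between the groups, while the S100A16 groups did not overlap. S100A13 had 46.2 and 40.9 CPM with shSCR2 and 36.8 and 30.7 CPM with shMITF, and S100A10 27.8 and 20.9 and 34.1 and 25.8 CPM.

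In Hermes 3A with shMITF, S100A6 and S100A10 rose. Of 19 members tested, 2 rose and 1 fell, beside 7.39% of all genes called, 3.35% higher and 4.04% lower, and the share of higher calls went from 45.3% to 56.0% under library-size scaling. S100A6 had 351, 354 and 351 CPM with shSCR and 966, 523 and 1103 CPM with shMITF, at 1.30 (SE 0.26, adjusted p = 0.012). S100A10 had 86.4, 84.8 and 92.8 CPM with shSCR and 272, 139 and 215 CPM with shMITF, at 1.24 (SE 0.22, adjusted p = 0.0085). For both genes all shMITF libraries lay above all controls and spread more than those did. With any one shSCR library left out the adjusted p of S100A6 was 0.053 to 0.070, and that of S100A10 was 0.058 without shSCR replicate 2, while without shMITF replicate 1 the change of S100A10 was 0.99. ANXA13 fell at few counts, from 54, 31 and 60 to 21, 12 and 7, at -1.46 (adjusted p = 0.042), a call lost without any one shSCR library (adjusted p = 0.10 to 0.19), without shMITF replicate 2 (0.064) or without shMITF replicate 3 (0.082). The summed S100 level with shMITF was 5031 to 8891 TPM, of which S100A6 alone averaged 3544 TPM, beside 1364 TPM with shSCR.

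The shMITF libraries of Hermes 3A differed among themselves for other members. S100B had 7.49, 17.5 and 48.6 CPM with shMITF, the highest of them near the 53.5, 52.0 and 52.2 CPM of the controls, at -1.10 (adjusted p = 0.19). ANXA1 had 396, 181 and 285 CPM with shMITF beside 189, 185 and 196 CPM with shSCR, and the groups overlapped. S100A1, at 6.20, 4.95 and 14.4 CPM beside 11.3, 11.9 and 12.1, overlapped too. Without shMITF replicate 3, S100B was called lower at -2.08 (adjusted p = 0.015) and S100A1 at -1.07 (adjusted p = 0.012). S100A4, at few counts, was at 1.404 (adjusted p = 0.097) and was called higher without shMITF replicate 1, at 1.75 (adjusted p = 0.02). ANXA6 was past the adjusted p only, at -0.63 (adjusted p = 0.02), with 642, 666 and 629 CPM with shSCR and 445, 360.3 and 443 CPM with shMITF, without overlap. With 1 library left out the adjusted p of ANXA6 reached 0.10. ANXA2 had 1614, 909.8 and 909 CPM with shMITF, S100A11 631, 329 and 503, S100A13 160, 87.0 and 167 and S100A16 23.9, 8.60 and 13.2 CPM, and none of these passed the test.

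Between the lines the effect of shMITF differed for 1 member of 20 tested, upward, beside 2.64% of all genes, 2.00% upward and 0.643% downward. It was ANXA1, at 2.79 (SE 0.49, adjusted p = 0.013), and its adjusted p was 0.091 without the filter on low counts, 0.083 without shSCR2 replicate 1 and 0.063 without shSCR2 replicate 2. S100A6 is among the members tested, but it held no counts in the 501Mel libraries of this comparison, so that its difference has no estimate. S100A16, at -1.67 (adjusted p = 0.14), was called more negative in 501Mel by DESeq2, at -1.71 (adjusted p = 0.03), and with the replicate number as a block, at -1.51 (adjusted p = 0.0497). Without Hermes 3A shMITF replicate 2, S100A16, S100A13 and S100A10 were called so, at -1.96 (adjusted p = 0.044), -1.03 (adjusted p = 0.0088) and -1.17 (adjusted p = 0.022).

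**Figure D5:**
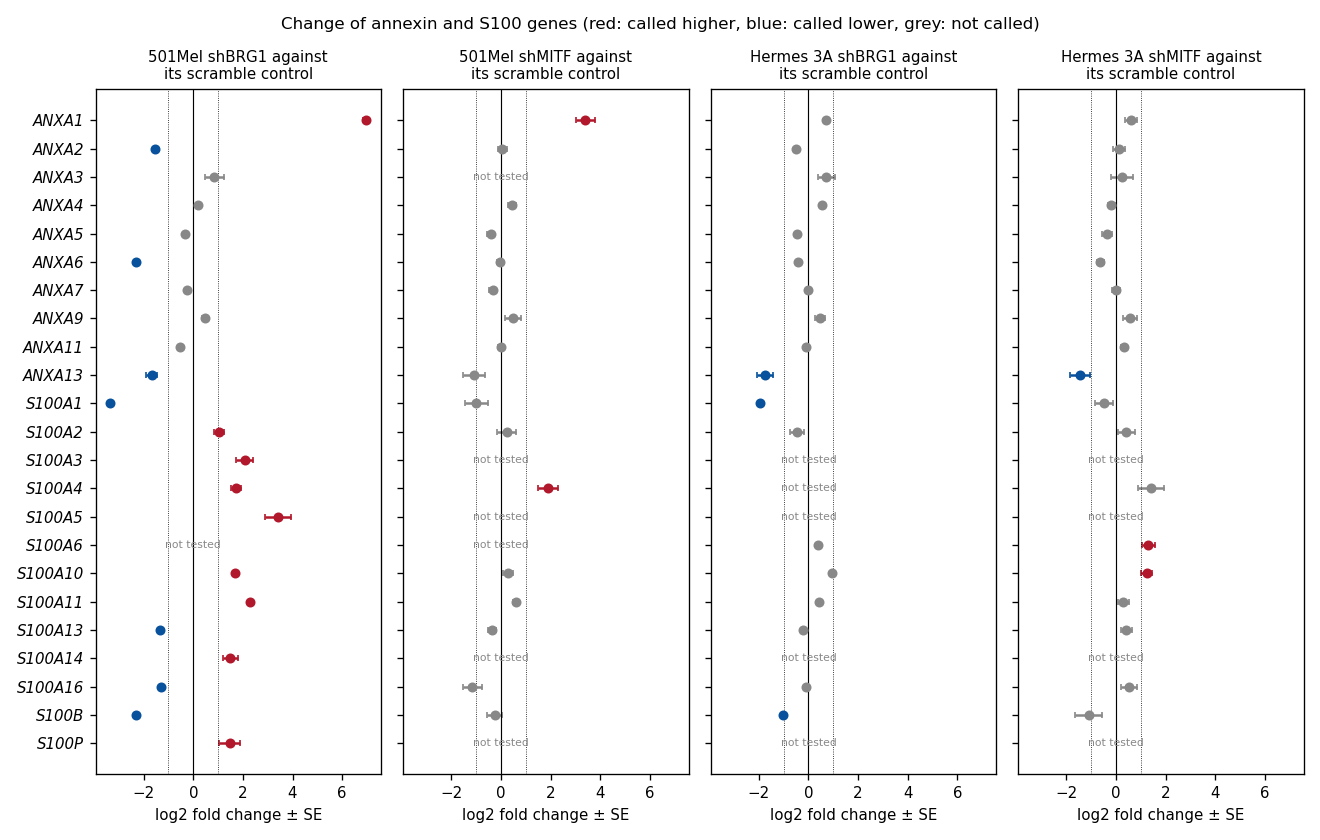
Log2 fold change ± SE of the 23 members tested in at least 1 of the 4 knockdown comparisons, each against its own scramble control, red for called higher, blue for called lower and grey for not called. In the panel of shBRG1 in 501Mel, 16 of the 22 tested are coloured, and ANXA1 is the point farthest to the right in both 501Mel panels.

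Receptors and partner proteins of these families, a list of 22 genes, were read beside the members. Of the 9 receptors, 2 rose and 2 fell with shBRG1 in 501Mel among 7 tested, 1 and 0 of 6 with shMITF in 501Mel, 0 and 1 of 6 with shBRG1 in Hermes 3A, and 1 and 2 of 6 with shMITF in Hermes 3A. Over all genes these comparisons called, in the same order, 39.1%, 8.99%, 9.26% and 7.39%. MCAM, the melanoma adhesion molecule that also binds S100A8 and S100A9, fell with shBRG1 in both lines, at -2.86 (adjusted p = 3.4e-23) in 501Mel and at -1.94 (adjusted p = 5.8e-24) in Hermes 3A, and with shMITF in Hermes 3A at -1.80 (adjusted p = 6.0e-04). BSG, another S100A9 receptor, fell with shBRG1 in 501Mel at -1.06 (adjusted p = 3.0e-15), and TLR4 fell with shMITF in Hermes 3A at -1.58 (adjusted p = 0.0012). CD36 and FPR3 were called only where each group held under 100 counts per library, and with shBRG1 in 501Mel, where they are the receptors that rose, their controls held 8, 7 and 11 and 8, 2 and 0 counts, so that they entered through the group where they were higher.

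Of the 13 partners, 1 rose and 2 fell with shBRG1 in 501Mel among 11 tested, 3 and 0 of 11 with shMITF in 501Mel, 1 and 0 of 11 with shBRG1 in Hermes 3A, and 1 and 0 of 11 with shMITF in Hermes 3A, beside the same shares of all genes, 39.1%, 8.99%, 9.26% and 7.39%. MYOF and DYSF are membrane repair proteins. MYOF had 3.98 and 5.99 CPM with shSCR2 and 47.3 and 37.7 CPM with shMITF in 501Mel, at 3.07 (adjusted p = 2.4e-04), and rose with shMITF in Hermes 3A at 1.45 (adjusted p = 0.0044). With shBRG1 it was just under the threshold on size in 501Mel, at 0.99 (adjusted p = 3.6e-12), and at 0.67 (adjusted p = 3.5e-14) in Hermes 3A. DYSF rose with shBRG1 in both lines, at 1.28 (adjusted p = 1.1e-09) in 501Mel and 1.20 (adjusted p = 4.5e-14) in Hermes 3A, and with shMITF it was at 1.73 (adjusted p = 0.053) in 501Mel and 0.22 (adjusted p = 0.6) in Hermes 3A. AHNAK, the large scaffold held by ANXA2 and S100A10, rose with shMITF in 501Mel at 1.56 (adjusted p = 3.3e-04), as did MYH9, the myosin that S100A4 binds, at 1.15 (adjusted p = 0.001). AHNAK2 fell with shBRG1 in 501Mel at -3.83 (adjusted p = 1.6e-16), as did CACYBP, a partner of S100A6, at -1.17 (adjusted p = 2.0e-16). Between the scramble groups of the lines, 2 of the 12 partners tested were higher in 501Mel and 5 lower, beside 41.4% of all genes called. Their log2 differences ran from -6.05 to 2.38, and MYOF and AHNAK were among the lower, at -6.05 and -4.19. Of the 5 receptors tested, 1 was higher and 1 lower.

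Other marker lists moved with the groups in which members changed, and their part in the changes was not tested. With shBRG1 in 501Mel the 6 melanocytic markers all fell, 3 of 4 proliferation genes (MKI67, TOP2A, CCNB1 and CDK1) fell, and 4 of 5 fibroblast genes tested rose, among them COL3A1, which held 1, 0 and 0 counts in the controls and entered through the group where it was higher. The proliferation genes summed to 432 to 466 TPM in the controls and 160 to 179 TPM in the knockdown, and the fibroblast genes to 2.50 to 3.59 and 12.1 to 13.9 TPM. The proliferation sum was also lower in the other knockdowns, at 856 to 869.8 TPM with shSCR2 and 463 to 533 TPM with shMITF in 501Mel, and at 313 to 346, 178 to 211 and 176 to 235 TPM with shSCR, shBRG1 and shMITF in Hermes 3A. The melanocytic sum was 17894 to 19897 TPM with shSCR2 and 10625 to 11478 TPM with shMITF in 501Mel, and 26149 to 32005 TPM with shMITF in Hermes 3A. Against the sum, TYR averaged 703 TPM with shSCR2 and 1006 TPM with shMITF in 501Mel, while the other markers had lower means with shMITF. In Hermes 3A SOX10 held 371, 1355 and 702 TPM with shMITF beside 605, 645 and 565 TPM with shSCR, and the other means were lower. The fibroblast sums in the other groups were 7.78 to 9.34 TPM in 501Mel with shSCR2, 6.76 to 14.2 with shMITF, and 26.5 to 30.4, 49.3 to 53.4 and 40.5 to 76.3 TPM in Hermes 3A with shSCR, shBRG1 and shMITF. The keratinocyte list, whose members KRT5, KRT14 and KRT1 stayed under the filter on low counts in every comparison, summed to 45.0 to 49.1 TPM with shSCR1 and 51.9 to 54.1 TPM with shBRG1 in 501Mel, mostly as KRT10. In Hermes 3A it summed to 51.0 to 54.5 TPM with shSCR and 76.6 to 99.6 TPM with shMITF.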

How the data were processed

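RNA-seq of 19 libraries in 7 groups was read from per-gene counts. The authors deposited unnormalized counts of reads on each Ensembl gene, and the submitters' processing notes name CASAVA 1.8, TopHat 1.4.1, Bowtie 0.12.7 and the build hg19. The counting program, annotation and strand setting are not given in the sources used here. Libraries were rRNA-depleted and treated with a duplex-specific nuclease, which compresses abundant transcripts.

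Members were matched by symbol (40913 of 44717 identifiers had one) and their positions come from GENCODE 29 on GRCh38, not from the authors' build. Each comparison was fitted over all genes in edgeR 4.0.16 (R 4.3.3) with TMM, the filterByExpr filter and a robust quasi-likelihood test, p-values adjusted by Benjamini-Hochberg over all genes tested. CPM use the TMM scaling of the comparison named. TPM divide counts by GENCODE exon length, at least 98.0% of counts falling on genes with a length. The fits were tested on simulated data. Members, marker and partner lists, and tests were chosen with earlier results of these data known. Fitted values are given for called members, and values in every library for members called in any knockdown comparison at 100 or more counts per library on average in the higher group. Replicates deviated together by number in no comparison of 3 pairs (correlations -0.049 to 0.049), and the numbers were not taken as pairs. Alternatives were DESeq2 1.42.0, library sizes, other count filters, a replicate block, wider fits, other 501Mel controls and each replicate left out.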

Additional observations from a re-analysis of the deposited data

Results flagged for a closer look

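The effect of a knockdown differed between 501Mel and Hermes 3A for 12 member results, each by the test of the difference in edgeR's quasi-likelihood fit with Benjamini-Hochberg adjustment, as 501Mel minus Hermes 3A on the log2 scale. They were 11 of 23 members tested for shBRG1, beside 26.9% of all genes, and 1 of 20 for shMITF, beside 2.64% of all genes. For shBRG1, ANXA1 differed by 6.22, S100A4 by 3.13, S100A3 by 3.11, S100A11 by 1.85 and S100A2 by 1.44. In the other direction, ANXA6 differed by -1.94, S100A1 by -1.42, S100B by -1.30, S100A16 by -1.26, S100A13 by -1.18 and ANXA2 by -1.06. S100A3 and S100A4 rest on at most 14 counts per library in Hermes 3A, and without Hermes 3A shSCR replicate 3 the difference of S100A3 was 2.60 (adjusted p = 0.089). S100A3 entered this fit only through the shBRG1 libraries of 501Mel, which favours an upward difference. For shMITF, ANXA1 differed by 2.79, and its adjusted p was 0.091 without the filter on low counts, 0.083 without shSCR2 replicate 1 and 0.063 without shSCR2 replicate 2. The groups held 2 or 3 libraries, too few for a check of single libraries that stand apart.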

How the results depend on the processing

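With TMM and the default filter as reported, most results of members past the adjusted p kept their direction and stayed called or not called. Only those members enter the shares of values given next, 3 of the 17 tested for shMITF in 501Mel. Calls gained by other members, such as S100A1 and S100A16 in that comparison, are outside these shares. A call needs both the adjusted p and the size. A member under the threshold on size therefore counts as the same even where its adjusted p was lost. For such members the shares do not measure whether the adjusted p held. Among values counted so, it reached 0.11 for S100A11 with shMITF in 501Mel. With shBRG1 in Hermes 3A it reached 0.81 for ANXA11, 0.51 for S100A13 and 0.27 for S100A6. Without leaving out libraries, the same call was reached in 142 of 149 values for shBRG1 in 501Mel, 21 of 21 for shMITF in 501Mel, 81 of 84 for shBRG1 and 22 of 23 for shMITF in Hermes 3A, 91 of 105 between the lines, 66 of 73 for the shBRG1 difference and 5 of 6 for the shMITF difference. With library sizes in place of TMM the direction turned for ANXA5 (0.0064) and ANXA7 (0.10) with shBRG1 in 501Mel and for ANXA7 (0.034) in the shBRG1 difference, and ANXA7 turned between the lines with shSCR2 as the 501Mel control (0.37). Library sizes gave 1 member higher with shBRG1 in Hermes 3A, 4 higher between the lines and 3 lower in the shBRG1 difference. At least 10 counts in every sample left 5 members higher with shBRG1 in 501Mel, 0 lower with shMITF in Hermes 3A and 3 higher in the shBRG1 difference, because few-count members were no longer tested, and 2567 of all genes were higher with shBRG1 in 501Mel, 634 with shBRG1 in Hermes 3A, 2284 higher and 2122 lower between the lines, and 1709 and 1851 in the shBRG1 difference. DESeq2 gave 2 members lower with shMITF in 501Mel and 1 lower in the shMITF difference, with 618 and 286 of all genes. No filter gave 1 member lower with shMITF in 501Mel, 4 higher between the lines, 0 higher in the shMITF difference and 215 of all genes lower there. One fit over every group of a line gave 2 members lower with shMITF in 501Mel, and 1596 and 922 of all genes. Both scramble groups pooled gave 1 member higher between the lines, and 327 and 248 of all genes with shMITF in 501Mel and 137 and 54 in the shMITF difference. shSCR2 in place of shSCR1 gave 1 member higher between the lines. Beyond the count filter, the cause was not tested.

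With the replicate number as a block, 2 members were lower with shMITF in 501Mel, 0 lower with shMITF in Hermes 3A and 1 lower in the shMITF difference, and ANXA13 lost its call with shMITF in Hermes 3A (adjusted p = 0.062). The numbers share no stated origin, and same-numbered libraries correlated at 0.13 in 501Mel with shMITF, with 2 pairs.

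With each library left out in turn, members higher with shMITF in 501Mel were 1 to 2 and lower 0 to 1, with shMITF in Hermes 3A 0 to 2 and 0 to 2, and in the shMITF difference 0 to 1 and 0 to 3. Among all genes these ranged, higher and lower, 543 to 1273 and 413 to 818 with shMITF in 501Mel, 236 to 692 and 354 to 898 in Hermes 3A, and 129 to 561 and 23 to 242 in the difference. Depth limits the few-count members S100A2, S100A3, S100A4, S100A5, S100A14, S100P, ANXA3 and ANXA13, and the shMITF groups limit every member by their spread.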
